A study of Mus musculus with 12 samples.

Results

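The 10 genes described here encode antioxidant enzymes and enzymes controlled by the transcription factor NRF2, and they were chosen by name: Nqo1, Gclc, Gclm, Txnrd1, Srxn1, Gpx1, Gpx3, Gpx4, Sod2 and Cat. All 10 were among the 27412 genes of the deposited table, and all 10 entered the test with 19564 genes in all. RNA was sequenced from a thin slice of outer kidney cortex of untreated male C57BL/6 mice, 3 carrying the γ-HIF2αM3 transgene (HIF2aM3 animals 17-51, 17-53 and 17-56) and 3 wild type (WT 1, 2 and 3). The transgene is driven by the promoter of γ-glutamyl transferase (GGT), an enzyme of the proximal tubule, which is 1 of many segments and cell types in the slice. The HIF2aM3 animals share the prefix 17. The sources used here do not say whether it stands for 1 transgenic line, nor how old the mice were. Each animal gave 2 kidneys, sequenced separately, and the counts of both were summed so that the animal was the replicate. The p-values between genotypes therefore set the difference against the spread among the 3 animals of each genotype. That spread is estimated in part from all genes. In RNA of a whole tissue slice, fewer cells of a type and less RNA per cell cannot be told apart.

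NRF2, encoded by Nfe2l2, is held at a low level by KEAP1, which delivers it for degradation. Oxidants and electrophiles modify KEAP1, and NRF2 then accumulates, pairs with small MAF proteins and binds antioxidant response elements in front of its target genes. The targets include enzymes that make glutathione, that keep thioredoxin and peroxiredoxins reduced, and that detoxify quinones. HIF2α, the product of Epas1, acts in the response to low oxygen and binds a different DNA element. Glutathione peroxidases, superoxide dismutases and catalase remove peroxides and superoxide directly, and the proximal tubule, rich in mitochondria and peroxisomes, is a site of high expression for several of them.

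RefSeq promoter windows on GRCm38.p6, which run from 250 bases before a transcription start to 50 bases from it, were at hand for 9 of the 10 genes as 14 windows. They are shown for the 3 genes whose window holds the antioxidant response element core TGACNNNGC on either strand, since these genes can be read beside their own values below. Capitals mark that core and, in Srxn1, also the variant core TGAGNNNGC, which was searched for after the windows had been read.
Srxn1: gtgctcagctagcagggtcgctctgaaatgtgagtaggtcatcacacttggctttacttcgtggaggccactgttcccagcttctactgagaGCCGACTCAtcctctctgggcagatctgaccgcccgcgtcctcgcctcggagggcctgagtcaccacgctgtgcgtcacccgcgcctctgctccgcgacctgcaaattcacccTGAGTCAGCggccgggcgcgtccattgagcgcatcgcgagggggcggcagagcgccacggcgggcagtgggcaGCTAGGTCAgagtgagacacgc
Gclm: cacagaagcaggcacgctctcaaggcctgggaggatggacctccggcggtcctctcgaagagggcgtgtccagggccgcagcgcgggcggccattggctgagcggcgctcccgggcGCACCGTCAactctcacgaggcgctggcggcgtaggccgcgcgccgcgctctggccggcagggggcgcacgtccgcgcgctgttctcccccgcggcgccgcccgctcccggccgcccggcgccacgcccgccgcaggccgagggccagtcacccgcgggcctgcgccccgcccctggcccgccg
Txnrd1: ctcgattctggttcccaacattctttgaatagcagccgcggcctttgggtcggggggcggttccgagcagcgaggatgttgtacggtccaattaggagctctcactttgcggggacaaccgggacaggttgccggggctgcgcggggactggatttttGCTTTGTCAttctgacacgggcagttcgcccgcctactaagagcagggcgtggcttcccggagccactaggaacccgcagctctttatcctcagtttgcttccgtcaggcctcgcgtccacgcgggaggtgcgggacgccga
The Srxn1 window is chr2:152105274-152105573, the Gclm window chr3:122245307-122245606 and the Txnrd1 window, the second of 3 for that gene, chr10:82858956-82859255, all on the plus strand. In Srxn1 the TGACNNNGC match lies on the reverse strand 29 to 37 bases from the start. The TGAGNNNGC matches of Srxn1 lie at -158 to -150 on the reverse strand and at -45 to -37 on the forward strand. The core lies at -134 to -126 in Gclm and at -92 to -84 in Txnrd1, on the reverse strand in both. TGACNNNGC is found in 3 of the 14 windows and in 12.4% of the 32851 windows of all genes, and TGAGNNNGC in 1 of the 14 and in 17.6%. The cores of the hypoxia response element were searched on both strands too. ACGTG was found in 2 of the 14 windows, those of Gclm and Gpx1, and in 19.6% of all windows. GCGTG was found in 10 of the 14 windows and in 32.4% of all windows. The 10 windows belong to 6 genes, and those of 1 gene can share sequence. A match is a run of letters and says nothing of whether a factor binds there. Sequence outside the windows was not searched, so a window without a match does not show that a gene lacks the element.

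None of the 10 genes passed the test between genotypes, with 0 higher and 0 lower in HIF2aM3 cortex at an adjusted p under 0.05 in the quasi-likelihood test of edgeR, while 733 of all 19564 genes passed, or 3.75%. At an unadjusted p under 0.05 there were 4 of the 10, with Srxn1, Gclc and Gpx3 on the lower side and Nqo1 on the higher, against 24.9% of all genes. DESeq2 placed 3 of the 10 lower, namely Srxn1, Gclc and Gpx3, against 10.4% of all genes called by that tool, and limma on the authors' RPKM called 0. Without kidney 2 of 17-51, the library of lowest depth, edgeR again called 0 of the 10. The log2 fold change was negative for 8 of the 10 genes, where 49.1% of all genes had a negative one. Its median over the 10 genes was -0.12, beside 0.0049 over all genes tested. The animals of the genotypes did not overlap for 4 genes, Gclc, Srxn1, Gpx3 and Sod2, all lower in HIF2aM3, where 32.3% of all genes did not overlap and 18.2% did so on the lower side. For Srxn1, Gpx3 and Sod2 the 6 libraries of each genotype did not overlap either, a pattern that 6.5% of all genes had on the lower side. The standard errors (SE) of the 10 log2 fold changes ran from 0.0646 to 0.143, around the median of 0.105 over all genes.

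**Figure D1:**
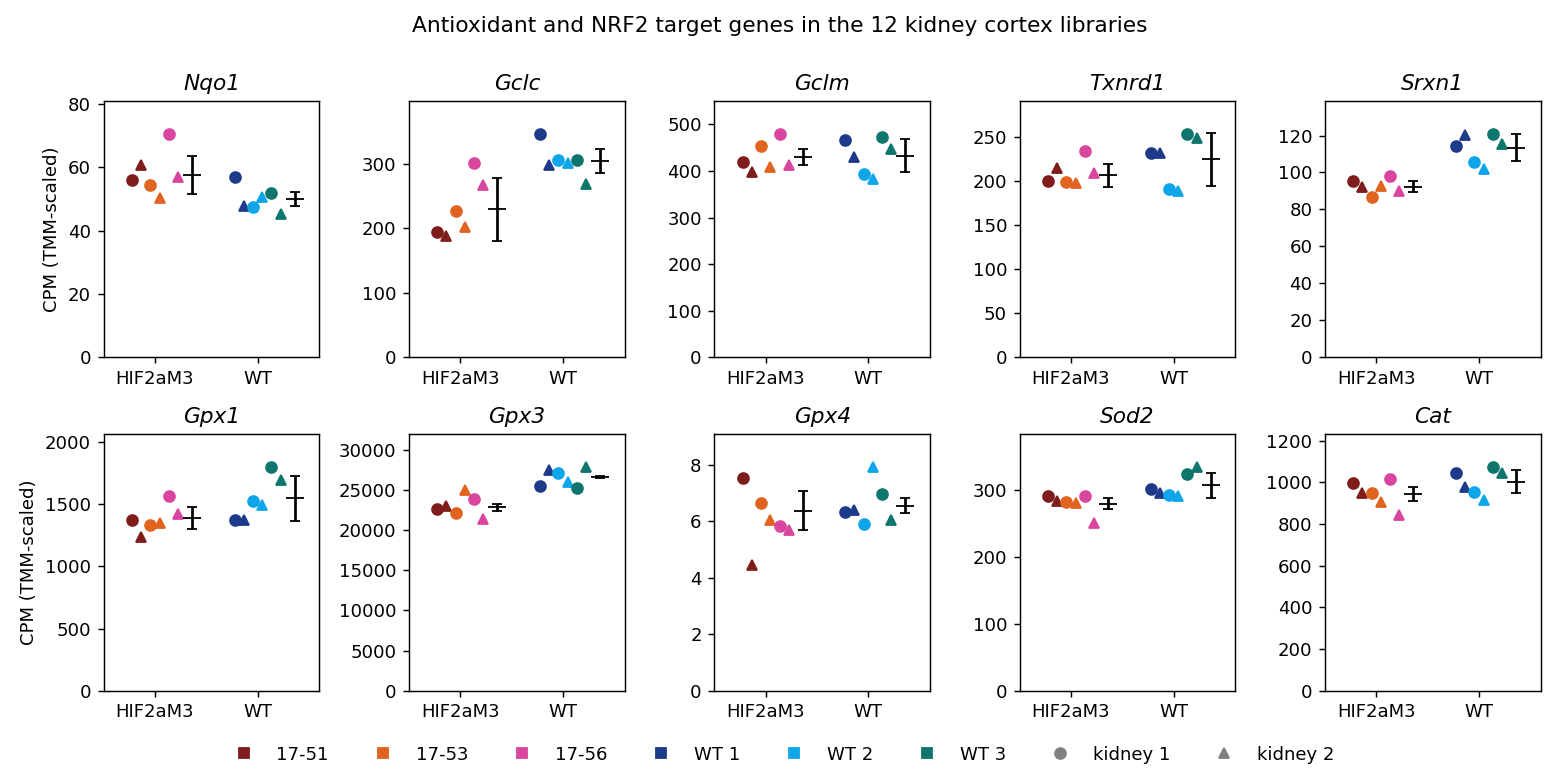
CPM (counts relative to TMM-scaled library size) of the 10 genes in the 12 libraries, HIF2aM3 left and WT right in each panel, with 1 colour per animal, circles for kidney 1 and triangles for kidney 2, and the mean ± SD of 3 animals as a bar. The libraries of Srxn1, Gpx3 and Sod2 have no overlap between genotypes, and those of Gclc, Gclm, Txnrd1, Gpx1, Gpx4, Nqo1 and Cat overlap. For Gclc the animals, with both kidneys summed, do not overlap.

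Nqo1 encodes a quinone reductase that is widely used as a readout of NRF2 activity. It had 56.3, 52.1 and 64.0 CPM in HIF2aM3 animals 17-51, 17-53 and 17-56, against 52.3, 49.2 and 48.2 CPM in WT 1, 2 and 3. Animals 17-51 and 17-56 lay above every WT animal and 17-53 lay just under WT 1. The means were 57.5 ± 6.04 CPM in HIF2aM3 and 49.9 ± 2.14 CPM in WT (SD, n = 3 each). The log2 fold change was 0.22 ± 0.08 (SE; edgeR adjusted p = 0.157, unadjusted p = 0.0304), which corresponds to a difference of 16.2% with a 95% interval of 1.86 to 32.5%. This and the intervals below are unadjusted and come from the SE of the fit.

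Glutamate-cysteine ligase, the first and rate-limiting enzyme of glutathione synthesis, has a catalytic subunit from Gclc and a modifier subunit from Gclm. Gclc had 191.6, 213.3 and 284.6 CPM in the HIF2aM3 animals, against 322.1, 306.7 and 285.9 CPM in the WT animals. The animals did not overlap, but 17-56 lay just under WT 3, and its kidney 1 library, at 301.9 CPM, lay within the WT libraries. The coefficient of variation of Gclc among HIF2aM3 animals, 21.2%, was the highest of the 10 genes, and among WT animals it was 5.97%. The means were 229.8 ± 48.6 CPM in HIF2aM3 and 304.9 ± 18.2 CPM in WT, a log2 fold change of -0.40 ± 0.14 (SE; edgeR adjusted p = 0.150) and a difference of -23.9% (95% interval -39.8 to -3.99%). Without animal 17-56, the HIF2aM3 animal nearest to WT, the log2 fold change was -0.58 and passed the test (edgeR adjusted p = 0.0348). Without any other single animal Gclc did not pass, with edgeR adjusted p from 0.194 to 0.333. With all animals it passed in a voom fit (adjusted p = 0.0183). That fit has the kidney number as a term, called the replicate block below, and the correlation between the kidneys of an animal. It called 2843 of all genes, where the main test called 733. Gclm had 412.8, 429.3 and 446.5 CPM in the HIF2aM3 animals, against 447.3, 392.9 and 457.8 CPM in the WT animals. All 3 HIF2aM3 values lay inside the WT range, and the log2 fold change was 0.0017 ± 0.08 (SE; edgeR adjusted p = 0.994), with a 95% interval of -11.6 to 13.5% for the difference. The 2 subunits were not tested against each other. Gclm is one of the genes whose promoter window, shown above, holds the core, and no window was given for Gclc. The Gclm count may hold reads of Gm17494, a transcript on the opposite strand that overlaps 296 bases of its exons. Gm17494 was given 41724 reads, and these may in turn hold reads of Gclm, since the use of strand is not stated.

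Txnrd1 encodes cytosolic thioredoxin reductase, a selenoprotein that keeps thioredoxin reduced. It had 201.1, 197.5 and 221.8 CPM in the HIF2aM3 animals, against 232.3, 192.2 and 250.8 CPM in the WT animals. The HIF2aM3 animals lay inside the wider WT range, whose ends were WT 2 and WT 3. Its log2 fold change was -0.11 ± 0.10 (SE; edgeR adjusted p = 0.549), with a 95% interval of -21.7 to 9.59% for the difference.

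Srxn1 encodes sulfiredoxin, which repairs over-oxidised peroxiredoxins, and it had the smallest p of the 10 genes. It had 94.2, 88.9 and 93.8 CPM in the HIF2aM3 animals, against 117.3, 104.8 and 117.9 CPM in the WT animals. No HIF2aM3 library, at 86.5 to 98.1 CPM, reached the lowest WT library, which was at 101.9 CPM, and the highest WT library had 120.8 CPM. The means were 92.3 ± 2.93 CPM in HIF2aM3 and 113.4 ± 7.38 CPM in WT (SD, n = 3 each). The log2 fold change was -0.28 ± 0.06 (SE; edgeR adjusted p = 0.0563, unadjusted p = 0.00256), a difference of -17.9% (95% interval -26.0 to -8.89%). The result lay at the edge of the threshold and passed in 7 of 20 alternatives, including the voom fit with the replicate block (adjusted p = 0.00659). Over the 20 alternatives the log2 fold change ran from -0.35 to -0.24 and the adjusted p from 0.000787 to 0.185. The lowest adjusted p came from edgeR with the 12 libraries as replicates. This treats the kidneys of an animal as independent and called 4829 of all genes. Without WT 2, the lowest of the WT animals, the log2 fold change was -0.35 (edgeR adjusted p = 0.0192). That setting called 1549 of all genes, where the main test called 733. Without any other single animal Srxn1 did not pass, with edgeR adjusted p from 0.114 to 0.185.

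The 3 genes whose pattern over the 12 libraries was most like that of Srxn1, by the root mean square distance of centred log2 CPM among 10178 genes with a mean of at least 10 CPM, were Hsp90ab1, Nme1 and Gm6368. Hsp90ab1, which encodes a cytosolic HSP90 chaperone, lay at a distance of 0.0437. It had 840.6 ± 20.2 CPM in HIF2aM3 and 1044 ± 89.8 CPM in WT (SD, n = 3 each), a log2 fold change of -0.30 ± 0.08 (SE; edgeR adjusted p = 0.0809). Nme1, which encodes a nucleoside diphosphate kinase, lay at 0.0458, with a log2 fold change of -0.25 ± 0.06 (SE; edgeR adjusted p = 0.0720). Gm6368 lay at 0.0459, with -0.24 ± 0.07 (SE; edgeR adjusted p = 0.0818). It shares sequence with Hsp90ab1, and Nme1 overlaps Gm20390 on its own strand, so these counts may mix reads of both genes. Like Srxn1, none of the 3 passed the test, and in the voom fit with the replicate block all 3 did (adjusted p = 0.00518 for Hsp90ab1, 0.00874 for Nme1 and 0.0110 for Gm6368). The 3 were chosen for likeness to Srxn1 in the same libraries. Their like fold changes and test results follow from that choice and are no separate evidence.

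Gpx1 encodes the main intracellular glutathione peroxidase. It had 1343, 1330 and 1493 CPM in the HIF2aM3 animals, against 1376, 1526 and 1740 CPM in the WT animals. The genotypes overlapped, 17-56 lying above WT 1. Its log2 fold change was -0.14 ± 0.10 (SE; edgeR adjusted p = 0.415), with a 95% interval of -23.1 to 6.58% for the difference.

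Gpx3 encodes the secreted glutathione peroxidase of plasma, which is made mainly in the proximal tubule. It had 22500, 23390 and 22591 CPM in the HIF2aM3 animals, against 26529, 26800 and 26596 CPM in the WT animals. The animals did not overlap, and the highest HIF2aM3 library, at 25035 CPM, lay just under the lowest WT library, at 25278 CPM. The means were 22827 ± 489.5 CPM in HIF2aM3 and 26642 ± 141.2 CPM in WT (SD, n = 3 each), which amounts to 2.32% of all counts in HIF2aM3 and 2.63% in WT. The log2 fold change was -0.21 ± 0.08 (SE; edgeR adjusted p = 0.162), a difference of -13.6% (95% interval -24.1 to -1.57%). DESeq2, which estimates the spread in another way, gave -0.21 with an adjusted p of 0.000579, and over all 20 alternatives the adjusted p ran up to 0.341.

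Gpx4 encodes the glutathione peroxidase that reduces lipid hydroperoxides in membranes and restrains ferroptosis. Its count was small, with 7.09, 6.31 and 5.72 CPM in the HIF2aM3 animals, against 6.36, 6.85 and 6.45 CPM in the WT animals, from 1102 reads in all HIF2aM3 libraries and 1189 in all WT libraries. The genotypes overlapped, and the log2 fold change was -0.03 ± 0.10 (SE; edgeR adjusted p = 0.865), with a 95% interval of -16.8 to 14.7% for the difference. In the GENCODE M21 transcripts, 61.7% of the windows of 50 bases along Gpx4 also occur in pseudogene transcripts. The sources used here do not say how reads that match several places were counted, so the level of Gpx4 is uncertain.

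Sod2 encodes the superoxide dismutase of mitochondria. It had 287.2, 279.1 and 270.2 CPM in the HIF2aM3 animals, against 297.8, 294.2 and 328.1 CPM in the WT animals. Neither animals nor libraries overlapped, with the highest HIF2aM3 library at 290.2 CPM and the lowest WT library at 290.7 CPM. The log2 fold change was -0.13 ± 0.07 (SE; edgeR adjusted p = 0.280), a difference of -8.31% (95% interval -17.5 to 1.96%), and it passed in 0 of 20 alternatives. Cat encodes catalase, the peroxisomal enzyme that splits hydrogen peroxide. It had 984.6, 922.1 and 931.2 CPM in the HIF2aM3 animals, against 1010, 945.0 and 1055 CPM in the WT animals. The genotypes overlapped, and the log2 fold change was -0.07 ± 0.07 (SE; edgeR adjusted p = 0.572), with a 95% interval of -15.3 to 6.82% for the difference.

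The authors' RPKM scale reads to library size and to a gene length. That length was not the longest GENCODE M21 transcript for every gene. In kidney 1 of 17-51, Gclc had 5470 reads and 50.9 RPKM, and Txnrd1 had 5668 reads and 13.0 RPKM. Their longest transcripts have 3423 and 3622 bases. The order below is that of the deposited RPKM and may differ from that of transcript abundance. Gpx3 ranked 9 by RPKM among all genes in both genotypes, at 6739 ± 137.7 RPKM in HIF2aM3 and 7614 ± 222.7 RPKM in WT (SD, n = 3 animals each). Gpx1, at 1486 ± 113.5 RPKM in HIF2aM3 and 1630 ± 185.2 RPKM in WT, ranked 15 in both. Cat followed with 253.8 ± 7.16 RPKM in HIF2aM3 and 263.5 ± 9.02 RPKM in WT. Gclc and Sod2 came next, and Gclc had 61.4 ± 13.1 RPKM in HIF2aM3 and 79.6 ± 5.28 RPKM in WT, while Sod2 had 66.6 ± 1.96 RPKM in HIF2aM3 and 71.5 ± 3.25 RPKM in WT. Their order differed between genotypes, and within HIF2aM3 the gap between them was smaller than the SD of Gclc. Gclm had 40.2 ± 1.84 RPKM in HIF2aM3 and 39.6 ± 2.33 RPKM in WT, and Nqo1 had 34.2 ± 3.37 RPKM in HIF2aM3 and 28.8 ± 1.27 RPKM in WT. Srxn1, at 13.6 ± 0.395 RPKM in HIF2aM3 and 16.3 ± 0.707 RPKM in WT, and Txnrd1, at 13.8 ± 0.796 RPKM in HIF2aM3 and 14.5 ± 1.61 RPKM in WT, did not differ beyond their spread in HIF2aM3. Gpx4 was lowest at 1.39 ± 0.0628 RPKM in HIF2aM3 and 1.48 ± 0.107 RPKM in WT.

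**Figure D2:**
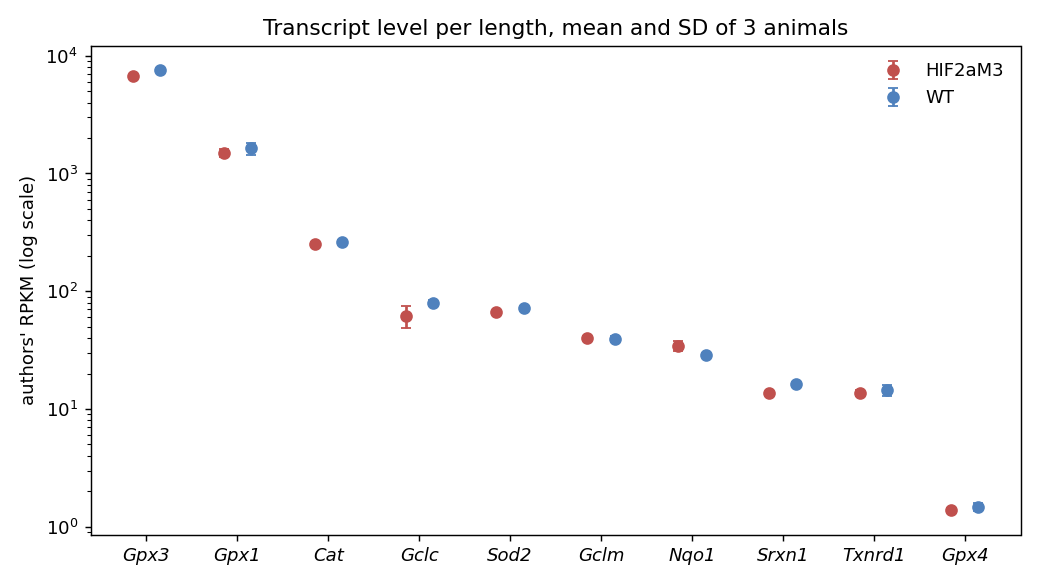
The authors' RPKM of the 10 genes on a log axis, mean ± SD of 3 animals, HIF2aM3 left and WT right of each pair. In HIF2aM3 the values run from 6739 RPKM for Gpx3 to 1.39 RPKM for Gpx4, and the genotype difference is small beside this range. The spacing between genes also depends on the gene lengths used for RPKM.

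The kidneys of an animal were also compared, a comparison added after the data had been seen, with the animal as a block in edgeR. The labels number the kidneys 1 and 2 and do not say which side each is. None of the 10 genes passed, with 0 called, against 17 of 19034 genes, or 0.0893%. Gclc, Gclm and Cat were lower in kidney 2 than in kidney 1 in 6 of 6 animals, a pattern that 3.53% of all genes had. Between kidney 2 and kidney 1 the log2 fold change of Gclc was -0.13 ± 0.03 (SE; edgeR adjusted p = 0.181, unadjusted p = 0.000892). That of Gclm was -0.11 ± 0.03 (SE; edgeR adjusted p = 0.248) and that of Cat -0.10 ± 0.04 (SE; edgeR adjusted p = 0.453). Nqo1, at -0.12 ± 0.05 (SE; edgeR adjusted p = 0.558), was lower in kidney 2 in 4 of 6 animals. These 4 had an unadjusted p under 0.05. The share of all 19034 genes that did so was not counted, so the 4 cannot be set against it. The genotype difference was tested for a change between kidneys in an interaction term. It was called for 0 of 19034 genes, with 588 at an unadjusted p under 0.05, none of them among the 10.

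**Figure D3:**
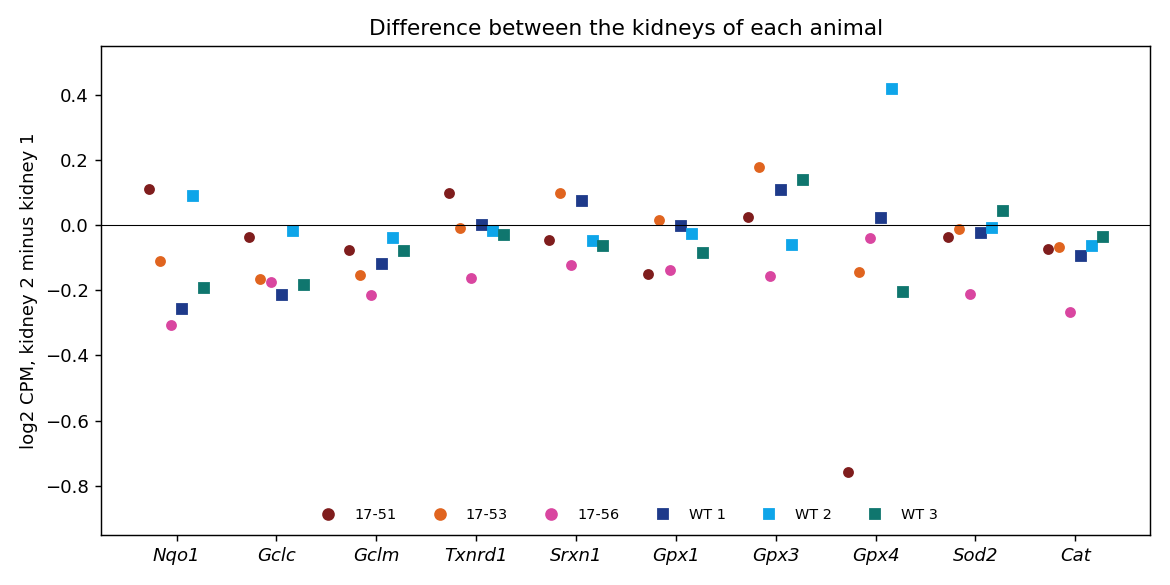
Difference in log2 CPM, kidney 2 minus kidney 1, for each of the 10 genes, with circles for the 3 HIF2aM3 animals and squares for the 3 WT animals. All 6 points of Gclc, Gclm and Cat lie below 0, and the lowest Gpx4 point, that of 17-51, rests on 19 reads in kidney 2.

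The regulators of the pathway were read from a list of 14 genes. Of these 0 passed in either direction by edgeR, against 3.75% of all genes. There were 3 at an unadjusted p under 0.05, against 24.9% of all genes. Nfe2l2 itself had 121.4, 120.4 and 123.4 CPM in the HIF2aM3 animals, against 126.0, 126.0 and 112.4 CPM in the WT animals, and the HIF2aM3 values lay inside the WT range. Its log2 fold change was 0.02 ± 0.06 (SE; edgeR adjusted p = 0.900). Keap1 had 69.0, 71.1 and 58.6 CPM in the HIF2aM3 animals, against 57.5, 57.1 and 55.04 CPM in the WT animals. Its animals did not overlap, as was so for 32.3% of all genes, and its log2 fold change was 0.24 ± 0.08 (SE; edgeR adjusted p = 0.114). It passed in 2 of 20 alternatives, the voom fit with the replicate block (adjusted p = 0.0338) and the 12 libraries as replicates. These settings called 2843 and 4829 of all genes, where the main test called 733. Gm16754 lies across 206 bases of Keap1 exons on the opposite strand. Gsk3b, a kinase that marks NRF2 for degradation apart from KEAP1, had the smallest p of the list, with a log2 fold change of 0.25 ± 0.06 (SE; edgeR adjusted p = 0.0619). It passed in 4 of 20 alternatives, with DESeq2 (adjusted p = 0.0145), in edgeR with library size alone (adjusted p = 0.0426), in the voom fit with the replicate block (adjusted p = 0.00414) and with the 12 libraries as replicates.

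Among 26 tested genes of a list of 28 other NRF2 targets, 2 rose, 1 fell and 23 did not pass in HIF2aM3 cortex, with a median log2 fold change of 0.04. Of all genes tested 3.75% passed, a share to set beside this count and those of the lists below. Ftl1, the ferritin light chain, had 763.7, 779.3 and 822.9 CPM in the HIF2aM3 animals, against 1145, 1133 and 1241 CPM in the WT animals, and fell by 0.56 ± 0.07 on the log2 scale (SE; edgeR adjusted p = 0.0167). Of its 50-base windows, 90.6% occur in transcripts of other genes, so its count may hold reads of its copies. Me1, the cytosolic malic enzyme that makes NADPH, had 370.1, 354.4 and 332.3 CPM in the HIF2aM3 animals, against 238.5, 238.9 and 293.8 CPM in the WT animals, and rose by 0.47 ± 0.10 (SE; edgeR adjusted p = 0.0450). Of its 50-base windows, 32.8% occur in transcripts of other genes, and A330041J22Rik overlaps it on the opposite strand, so its count may hold other reads too. Aox1, an aldehyde oxidase, rose by 1.10 ± 0.22 (SE; edgeR adjusted p = 0.0432) at a low level, 1.33 ± 0.129 CPM in HIF2aM3 and 0.628 ± 0.161 CPM in WT, from 228 reads in HIF2aM3 and 111 in WT. Hmox1, heme oxygenase 1 and a common readout of NRF2, was chosen for mention after its value was seen and had a log2 fold change of 0.04 ± 0.10 (SE; edgeR adjusted p = 0.858).

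In the list of 18 genes of glutathione synthesis and turnover, 0 rose and 2 fell, with a median of -0.05. Hagh, which encodes glyoxalase II and frees glutathione from its lactoyl form, had 108.0, 109.1 and 117.3 CPM in the HIF2aM3 animals, against 158.1, 154.4 and 166.4 CPM in the WT animals. It fell by 0.51 ± 0.06 on the log2 scale (SE; edgeR adjusted p = 0.0143), and its libraries did not overlap, as was so for 6.5% of all genes on the lower side. Oplah, the 5-oxoprolinase that returns glutamate to the glutathione cycle, fell by 0.27 ± 0.06 (SE; edgeR adjusted p = 0.0432), and it overlaps Exosc4 and Smpd5 on the opposite strand.

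In the list of 21 thioredoxin, peroxiredoxin and glutaredoxin genes, 1 rose and 2 fell, with a median of -0.02. Prdx6, a peroxiredoxin that uses glutathione, had 146.2, 139.8 and 138.3 CPM in the HIF2aM3 animals, against 184.5, 172.2 and 174.5 CPM in the WT animals, and fell by 0.31 ± 0.06 on the log2 scale (SE; edgeR adjusted p = 0.0344). Msrb1, a selenoprotein that repairs oxidised methionine, fell by 0.43 ± 0.06 (SE; edgeR adjusted p = 0.0215). Txnrd3, a thioredoxin and glutathione reductase best known from testis, rose by 0.38 ± 0.07 (SE; edgeR adjusted p = 0.0360), with 29.3 ± 0.59 CPM in HIF2aM3 and 22.8 ± 1.85 CPM in WT. Like Srxn1 and 6.5% of all genes on the lower side, Prdx6 and Msrb1 had no overlap between the libraries of the genotypes.

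Of the 6 tested glutathione peroxidases and superoxide dismutases outside the 10 genes, 0 passed and 0 had an unadjusted p under 0.05 in edgeR, against 24.9% of all genes for the latter. The one with the smallest p was Sod3, the extracellular superoxide dismutase, with a log2 fold change of -0.17 ± 0.08 (SE; edgeR adjusted p = 0.252), which passed in the voom fit with the replicate block (adjusted p = 0.0427). Among 18 genes of selenium handling and selenoproteins, 0 rose and 1 fell. It was Scly, which recovers selenium from selenocysteine and overlaps Gm17090 on the opposite strand, by 0.31 ± 0.06 on the log2 scale (SE; edgeR adjusted p = 0.0351). Among 23 tested genes of peroxisomal oxidases and peroxisome assembly, 0 rose and 1 fell. It was Acox3, a peroxisomal acyl-CoA oxidase that releases hydrogen peroxide, which had 264.6 ± 7.47 CPM in HIF2aM3 and 393.0 ± 37.3 CPM in WT, a log2 fold change of -0.56 ± 0.08 (SE; edgeR adjusted p = 0.0234). Its exons overlap those of 4931431C16Rik on the opposite strand. Among 14 tested genes of mitochondrial and cellular sources of reactive oxygen, 1 rose and 0 fell. It was Nox4, the NADPH oxidase of the renal tubule, with 569.9 ± 28 CPM in HIF2aM3 and 444.1 ± 37.5 CPM in WT, a log2 fold change of 0.37 ± 0.08 (SE; edgeR adjusted p = 0.0492).

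These calls on listed genes depended on the animals and on the processing. When each animal was left out in turn, Ftl1 and Hagh passed in 4 of 6 cases and failed without 17-51 and without 17-53, Msrb1 and Txnrd3 passed in 2, Aox1 in 0, and Me1, Oplah, Prdx6, Scly, Acox3 and Nox4 in 1. For Me1 that 1 case was without WT 3, and for the other 5 it was without WT 2. The direction was the same in every case. Without kidney 2 of 17-51, Oplah (edgeR adjusted p = 0.0581) and Nox4 (edgeR adjusted p = 0.0556) did not pass. Without that library and kidney 2 of 17-56, Oplah (edgeR adjusted p = 0.0572) and Scly (edgeR adjusted p = 0.0511) did not pass. With limma on the authors' RPKM plus 1, Ftl1 passed (adjusted p = 0.0467) and the other 9 of these genes left by the filter did not, among them Hagh (adjusted p = 0.0557). With RPKM plus 0.1, or plus 1 with no filter, none of those tested passed, Ftl1 being at an adjusted p of 0.118 and 0.0526. In kidney 2 alone Aox1 (edgeR adjusted p = 0.310), Me1, Prdx6, Txnrd3 and Nox4 did not pass, and in kidney 1 alone Oplah and Scly did not. Nox4 did not pass with RLE factors (edgeR adjusted p = 0.0505) or with a mean of at least 1 CPM, nor did Oplah with library size alone. Each of the 11 calls held with DESeq2 and in the voom fit with the replicate block.

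**Figure D4:**
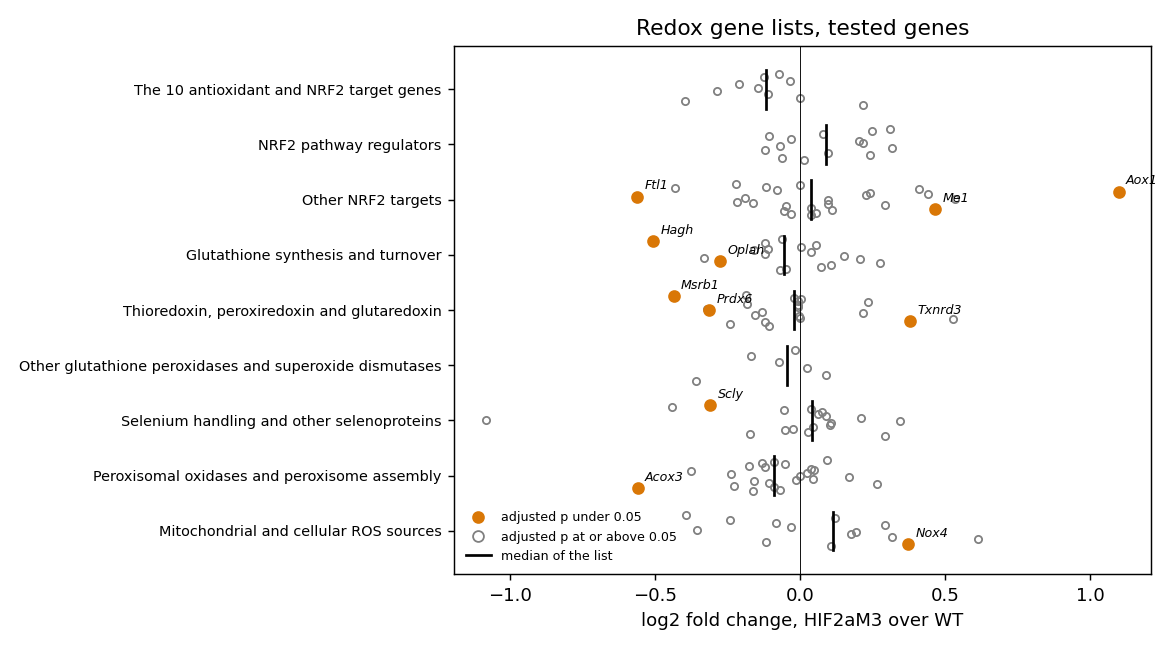
Log2 fold change, HIF2aM3 over WT, of every tested gene of the 10 antioxidant genes and of 8 other redox lists, with filled points for an adjusted p under 0.05 and a bar at each list's median. None of the 10 genes is filled, and the filled points of the other lists lie on both sides of 0.

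Markers of cell types were read beside these results. Their part in the results was not tested. The counts below stand beside 3.75% of all genes that passed. Of 15 tested proximal tubule markers, 1 rose (Slc5a12, by 0.49 on the log2 scale) and 1 fell (Slc22a6, by 0.50), and their summed level ran from 20592 to 22647 CPM in HIF2aM3 animals and from 22981 to 23302 CPM in WT animals. Of 14 distal nephron and collecting duct markers, 0 rose and 3 fell (Foxi1, Avpr2 and Aqp3), and the sum ran from 3556 to 3886 CPM in HIF2aM3 animals and from 4115 to 5125 CPM in WT animals. Of 10 endothelial markers, 3 rose (Kdr, Erg and Emcn) and 0 fell, with sums of 689.5 to 695.3 CPM in HIF2aM3 animals and 437.5 to 670.2 CPM in WT animals. Of 11 leukocyte markers, Csf1r rose, with sums of 384.9 to 473.7 CPM in HIF2aM3 animals and 222.6 to 495.7 CPM in WT animals. Of 5 tested erythrocyte and 6 podocyte markers, 0 passed in edgeR. Epb42, the erythrocyte marker with the smallest p, was higher in HIF2aM3 (log2 fold change 0.78) and passed in the voom fit with the replicate block (adjusted p = 0.00933). The other tested erythrocyte markers were Slc4a1 at 0.17, also on the distal list, and Hbb-bs, Hbb-bt and Alas2 on the lower side, at -0.73, -0.82 and -0.59. The erythrocyte sum ran from 89.2 to 146.9 CPM in HIF2aM3 animals and from 122.8 to 196.9 CPM in WT animals, and the podocyte sum from 590.2 to 621.4 CPM in HIF2aM3 animals and from 530.8 to 741.2 CPM in WT animals. No marker was at 0 reads in all libraries. Leaving out an animal ended each of these calls in at least 4 of 6 cases, and all but Aqp3 passed without WT 2. Without kidney 2 of 17-51, Slc22a6, Slc5a12 and Aqp3 did not pass (edgeR adjusted p = 0.0534, 0.0554 and 0.0534), and without it and kidney 2 of 17-56, Slc22a6, Slc5a12 and Erg did not pass (edgeR adjusted p = 0.0584, 0.0593 and 0.0509). Avpr2 and Csf1r share exon sequence with Arhgap4 and Hmgxb3 on the opposite strand. Epas1 had 275.7, 275.5 and 246.9 CPM in the HIF2aM3 animals, against 197.2, 239.6 and 177.4 CPM in the WT animals, a log2 fold change of 0.39 ± 0.11 (SE; edgeR adjusted p = 0.0881). Epas1 passed in 4 of 20 alternatives, with DESeq2 (adjusted p = 0.0104), in the voom fit with the replicate block (adjusted p = 0.0145), in edgeR without WT 2 (adjusted p = 0.0192) and with the 12 libraries as replicates. It is not stated in the sources used here if the transgene's own reads were counted as Epas1. Libraries held 24032148 to 43499743 counts, except kidney 2 of 17-51 with 4161829.

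**Figure D5:**
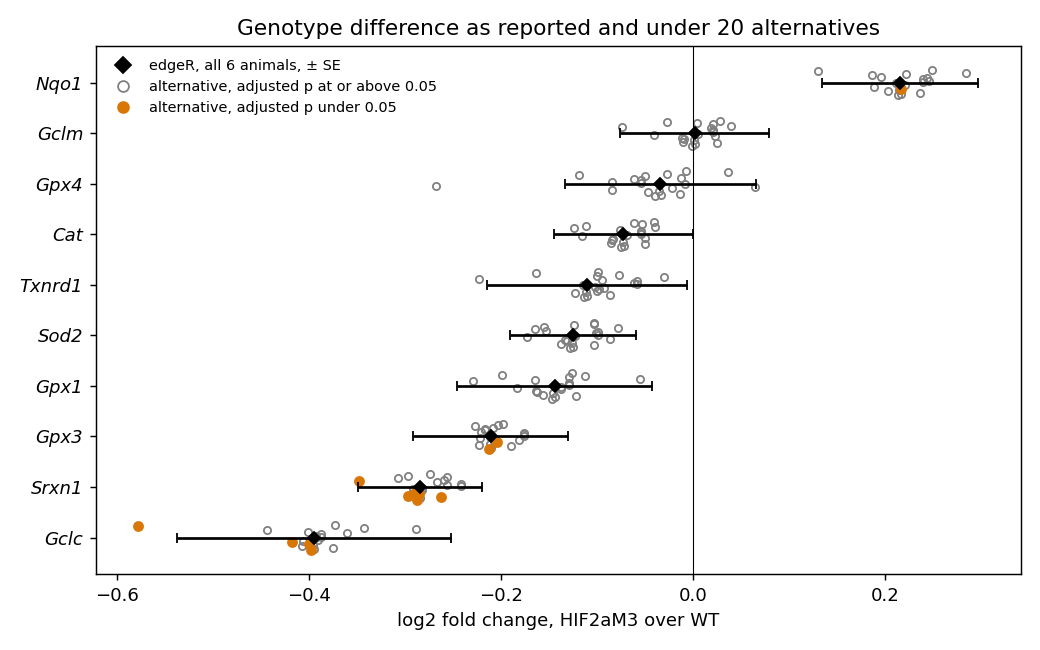
Log2 fold change, HIF2aM3 over WT, of each of the 10 genes, as reported (diamond, ± SE) and under 20 alternatives (circles, filled where the adjusted p was under 0.05). Srxn1 is filled in 7 alternatives, Gclc in 4, Gpx3 in 2, Nqo1 in 1 and the other 6 genes in 0, while only Gclm and Gpx4 have points on both sides of 0.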

How the data were processed

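RNA of outer kidney cortex was prepared with a TruSeq RNA kit, per the labels' protocols, from both kidneys of 3 HIF2aM3 and 3 WT mice, giving 12 libraries. The authors deposited raw read counts per Ensembl gene and library, and RPKM values that the authors computed from them, per the file headers. Per the submitters' processing notes, the genome build was mm9. Aligner, counter, annotation and use of strand are not stated in the sources used here. Symbols came from GENCODE M21 names, which matched 24630 of 27412 gene IDs, and the other IDs held 1.18% of counts. That annotation is on GRCm38 and served only for names, exon overlaps and shared 50-base sequence. Promoter sequences are those of RefSeq on GRCm38.p6.

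Both kidneys of an animal were summed, and these sums of counts were tested in R 4.3.3 with the two-sided quasi-likelihood test of edgeR 4.0.16, after filterByExpr and with TMM factors, with Benjamini-Hochberg adjustment over all tested genes at 0.05. CPM are counts relative to TMM-scaled library size. The SE was obtained from the fold change and its F statistic. Alternatives used DESeq2 1.42.0, limma 3.58.1 on log2 of RPKM plus 1 or 0.1, voom with the correlation between kidneys of an animal, other factors and filters, each kidney alone, the 12 libraries as replicates, and leaving out animals one at a time. The scripts were tested on simulated data.

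The genes and the lists were chosen with earlier results of these data known. The comparison between kidneys, the setting without the shallowest library and 17-56 kidney 2, and the motif TGAGNNNGC were added after the data were seen. Named genes were the 10 genes, Epas1, Nfe2l2 and Keap1, up to 4 genes per list past the threshold or else the 1 with the smallest p, and the 3 genes nearest in pattern to the one of the 10 with the smallest p. PCR reads are not independent molecules. The library of lowest depth, 4161829 counts, was kept and weighs less in sums.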

Additional observations from a re-analysis of the deposited data

Results flagged for a closer look

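In 6 of the 74 sets of 6 libraries of 1 genotype that were examined, 1 library stood apart from the other 5 by Dixon's criterion. For independent samples chance gives about 1 in 20, a rate that does not hold here because the kidneys of an animal share it. Among the 10 antioxidant genes it was Sod2, with 250.2 CPM in kidney 2 of HIF2aM3 17-56, where the other HIF2aM3 libraries had 279.7 to 290.2 CPM. In the same library Acox3 was at 233.2 CPM, and the other HIF2aM3 libraries had 263.8 to 279.5 CPM. Erg was at 16.7 CPM in kidney 2 of HIF2aM3 17-51, the library of lowest depth, where the others had 12.4 to 13.4 CPM. Among the WT libraries, Aox1 was at 1.02 CPM in kidney 2 of WT 1, where the others had 0.408 to 0.635 CPM. Msrb1 was at 148.0 CPM in kidney 2 of WT 2, where the others had 164.5 to 173.5 CPM. Sod3 was at 763.9 CPM in kidney 1 of WT 3, where the others had 675.9 to 701.1 CPM.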

How the results depend on the processing

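Of the 10 genes, 0 passed as reported. On the lower side 3 passed with DESeq2 and with the 12 libraries as replicates (Srxn1, Gclc and Gpx3), 2 in the voom fit with the animal correlation of 0.435 and the kidney number as a replicate block (Srxn1 and Gclc), and 1, Srxn1, with library size alone, with no filter and with a mean of at least 1 CPM. Leaving out each animal gave 0 to 1 (Srxn1 without WT 2, Gclc without 17-56). On the higher side 1, Nqo1, passed with the 12 libraries as replicates. That setting treats the kidneys of an animal as independent and called 4829 of all genes, where the main test called 733. The voom fit called 2843 genes, and DESeq2 called 10.4% of the genes it tested. For the 12 libraries and the voom fit the share of all genes was not counted, so their counts among the 10 cannot be set against it.

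Over all genes, 733 were called as reported, 2020 with DESeq2, 4829 with the 12 libraries as replicates, 2843 with the replicate block in voom, 337 in kidney 2 alone, 34 with RPKM plus 1, 7 with RPKM plus 0.1 and 8 with RPKM plus 1 and no filter. Without 1 animal the count ran from 11 (without 17-53) to 1549 (without WT 2). The difference of the genotype effect between kidneys was called for 0 genes, and for 0 to 1 without 1 animal (1 without WT 3). The kidney comparison called 17 genes, 9 with library size alone and 4 to 91 without 1 animal.

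Gclm changed sign with DESeq2 (-0.0009), no filter (-0.0104), 12 libraries (-0.0098), voom (-0.0117) and kidney 2 alone (-0.0408), and ran from -0.0737 to 0.0398 without 1 animal. Gpx4 was at 0.0643 in kidney 1 alone and at -0.118 to 0.0365 without 1 animal, and Nfe2l2 at -0.0418 to 0.0360. The other named genes kept their direction under every alternative run. Beyond these genes the replicate block in voom also called Epas1, Keap1, Gsk3b, Sod3, Epb42, Hsp90ab1, Nme1 and Gm6368, and it changed no other call of a named gene. The causes were not tested. Gpx4, at 1102 reads in HIF2aM3 and 1189 in WT, had the fewest reads of the 10 genes, and kidney 2 of 17-51 held 19 of them. Its SE of 0.0998 was not the largest of the 10, which was 0.143 for Gclc.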
